A study of Saccharomyces cerevisiae with 12 samples.

Results

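The 40S subunit is the small subunit of the cytosolic ribosome, the one that reads the mRNA, and in budding yeast, Saccharomyces cerevisiae, nearly all its proteins are encoded by the RPS genes, RPS0A to RPS31. All 56 RPS genes, chosen by their identifiers, were followed here among the 7127 features of the count table, and all 56 were among the 6157 genes with enough counts to test. They form 32 families, each making 1 protein of the subunit or a near-identical pair. Of these families, 8 have a single gene and 24 are a pair of duplicated genes (paralogs) named A and B.

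Transcripts were counted by RNA sequencing in 4 groups of 3 libraries, taken from mid-log cultures in complete synthetic medium at 30 °C, with 3 independent biological replicates a group. In the NTT1 strain, whose genotype is given as PH-NTT1 integrated at a genomic locus and which also holds a QUEEN reporter, a fluorescent sensor of ATP, cells were either given 5 mM ATP in the medium for 1 h or left untreated. NTT1 is a nucleotide transporter of the parasite Encephalitozoon cuniculi. The same pair of conditions was applied to a wild-type strain with an empty vector, called WT here. A strain comparison cannot separate the transporter from the reporter. Each WT library has a background name of its own whereas the NTT1 libraries share 1. The transporter's own transcript was not analysed here. The design compares ATP with no ATP within each strain, the strains at each treatment, and the ATP effect between the strains.

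Ribosomal proteins are needed in equal amounts, because each subunit holds 1 copy of each, so yeast makes their transcripts together and at high levels. The factor Rap1 opens their promoters, Fhl1 and Ifh1 bind there with Hmo1, and Sfp1 adds to their output. The kinases TORC1 with Sch9, and protein kinase A, raise this output when nutrients are plentiful, and stress lowers it quickly. Paralogs arose in an ancient duplication of the genome. In some pairs 1 gene is set by the protein itself: Rps14 binds the RPS14B precursor transcript, and Rps28 acts with the decapping factor Edc3 on the RPS28B transcript.

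Library totals ran from 14845855 to 20714804 counts, and RPS genes took 5.95 to 7.58% of them. They took 6.55, 7.49 and 6.70% of counts in NTT1 with ATP, 6.79, 7.46 and 6.65% in untreated NTT1, and 7.21, 6.91 and 7.05% in WT with ATP. The untreated WT libraries lay further apart, at 7.16, 5.95 and 7.58%, and all 56 RPS genes were higher in their replicate 3 than in their replicate 2. The 81 genes of the large subunit and its stalk kept a near-constant ratio to the RPS genes. RPS counts divided by large-subunit counts stayed between 0.797 and 0.807 in all 12 libraries. A change in the number of ribosomal transcripts per cell cannot be read from these shares, since no count of cells or added standard was used here.

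RPS transcripts were among the most abundant of the cell. Levels are given as CPM, counts relative to the scaled library size, and levels of different genes are compared only per kilobase of coding sequence (CPM per kb). The median over the 56 genes was 2548 CPM per kb, against 45.96 CPM per kb over the 5775 tested genes with a coding length. Of the 200 genes highest on this scale 51 were RPS genes. The lowest RPS gene, RPS9A, ranked 417.

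The highest RPS genes on this scale lack a paralog. RPS31 (YLR167W, chrXII:498947-499405 in build R64), which makes a ribosomal protein fused to ubiquitin, stood at 7267 CPM per kb over the 12 libraries. RPS20, a protein of the head, stood at 6524 and RPS12 at 5379 CPM per kb. At the other end were single members of uneven pairs. RPS9A stood at 429.6 CPM per kb, RPS14B at 502, RPS22B at 852 and RPS7B at 1123.

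Summed over paralogs, the families lay closer together. The median family reached 4750 CPM per kb, with quartiles at 3984 and 5252, and a coefficient of variation of 23.5% over the 32 families. The 24 paired families had a median of 4683 CPM per kb and the 8 single genes one of 5085 CPM per kb, while the median paired gene alone had 2362. The highest family, RPS31, stood 2.63-fold above the lowest, RPS2, a protein of the mRNA entry channel at 2759 CPM per kb. RPS26, which contacts mRNA near the exit channel, came next to the top with 7240 CPM per kb from 2 genes. RPS27, a zinc-binding protein, came next to the bottom with 2771 CPM per kb.

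**Figure D1:**
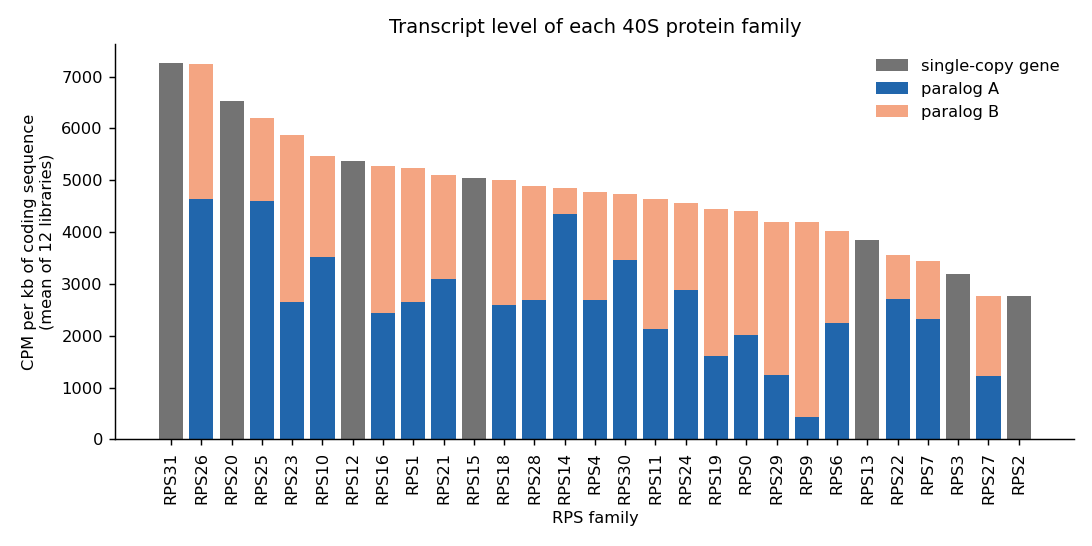
Transcript level of each RPS family, in CPM per kb of coding sequence, as the mean of 12 libraries, for 29 of the 32 families. Grey bars are single genes, and blue and salmon stacks are paralogs A and B; families run from 7267 in RPS31 to 2759 CPM per kb in RPS2.

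The group means of the highest and the lowest family lay within the spread of untreated WT. RPS31 averaged 7025 ± 429 CPM per kb in NTT1 with ATP and 7264 ± 449 in untreated NTT1 (SD, n = 3 each). In WT it averaged 7649 ± 157 with ATP and 7131 ± 1396 without (SD, n = 3 each). RPS2 averaged 2799 ± 201 CPM per kb in NTT1 with ATP and 2652 ± 16.7 in untreated NTT1, and 2795 ± 31.9 in WT with ATP and 2792 ± 428 in untreated WT (SD, n = 3 each). The group SDs of untreated WT were the widest of the 4 groups for both, and its replicate 2 was the low library: RPS31 had 3619, 2534 and 3667 CPM in the 3 untreated WT libraries.

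Paralog balance was read as the percent of a pair's counts that fell in gene A, a value that does not depend on library size. Gene A was the higher in 16 of the 24 pairs and gene B in 8. In 21 pairs the same gene was higher in all 12 libraries, and the median pair moved by only 2.55 percentage points from its lowest to its highest library. The 4 most uneven pairs were RPS9, RPS14, RPS22 and RPS25, followed closely by RPS30 with 73.5% in gene A and RPS29 with 29.5%. RPS9, a protein near the mRNA entry, had 10.4% of its counts in RPS9A, so that RPS9B was 8.65-fold higher. RPS14, at the platform, had 89.6% in RPS14A and was 8.596-fold uneven the other way. RPS22, in the body, had 76.0% in gene A, and RPS25, a head protein used by viral internal ribosome entry, had 74.2%.

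The most even pairs were RPS1 with 50.6% of counts in gene A, RPS18 with 51.6% and RPS16 with 46.2%. In total 8 pairs lay between 45 and 55%. RPS1 lies at the platform, and RPS16 and RPS18 in the head. In 18 of the 24 pairs the 12 libraries lay within 4 percentage points, and in 6 they did not. The widest were RPS27 with 14.2 points, RPS28 with 13.9, RPS21 with 9.96, RPS29 with 9.33, RPS30 with 6.92 and RPS26 with 4.12. RPS28 is also 1 of the 8 pairs between 45 and 55% on average, with libraries from 49.3 to 63.1%. Among the most uneven and most even pairs, RPS14 ranged from 88.1 to 90.1% over the 12 libraries, RPS22 from 75.4 to 77.4%, RPS1 from 49.6 to 51.4% and RPS16 from 45.3 to 47.0%. Coding sequences of the paralogs are 84.3 to 99.2% identical. In 2 pairs, of which RPS6 has 53.4%, most 100-base windows of the coding sequence recur elsewhere in the genome, so the balance of both pairs and the levels of their single genes are uncertain, because the treatment of reads that match several places is not given in the sources used here. RPS24 and RPS4 have 17.2 and 13.2% such windows, and 20 pairs have none.

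**Figure D2:**
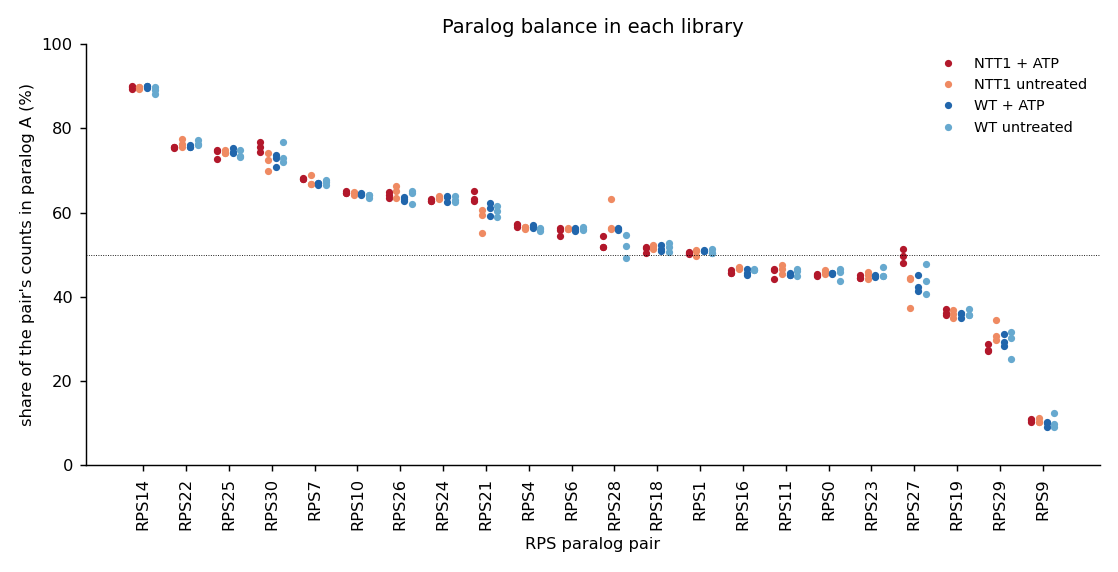
Share of counts in paralog A for 22 of the 24 pairs, in percent, with 1 point for each library, groups side by side in the order of the legend and a dotted line at 50%. Pairs run from RPS14 near 90% to RPS9 near 10%, and the points of RPS21, RPS27 and RPS28 spread most.

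Most RPS genes sit apart from one another, on 14 chromosomes. RPS14B and RPS22A, on chromosome X, end towards each other with 298 bp between them, so their counts are uncertain where transcripts run past their ends, because the strand setting of the counting is not given in the sources used here. RPS16A and RPS16B each start opposite a large-subunit gene, RPL13B at 720 bp and RPL13A at 634 bp. RPS15 starts opposite RPP2A at 719 bp. Of the 56 genes, 36 carry an intron and 20 do not.

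A core form of the Rap1 site, ACCCNNACA on either strand, was looked for in a window of 300 bases that begins 450 bases before each start codon. It was present at 14 of 56 RPS genes (25%) and 33 of 81 large-subunit genes (40.7%), against 223 of the 6000 nuclear protein-coding genes (3.72%). A match is a description of the letters and no evidence of binding. Only this form was searched for, so a gene without a match may hold another form of the site, or one outside the window. For comparison, the PAC core GATGAG, common at ribosome assembly genes, was present at 12.5% of RPS genes and 17.4% of all genes, and the RRPE core AAAAATTT at 16.1 and 11.8%. The evenly balanced pair RPS16A and RPS16B is shown because both windows hold the core on each strand, and the matched bases are in capitals. The windows are read 5′ to 3′ on the strand of the gene from the RefSeq genome of build R64, chrXIII:551478-551777 on the plus strand and chrIV:307940-308239 on the minus strand.
RPS16A: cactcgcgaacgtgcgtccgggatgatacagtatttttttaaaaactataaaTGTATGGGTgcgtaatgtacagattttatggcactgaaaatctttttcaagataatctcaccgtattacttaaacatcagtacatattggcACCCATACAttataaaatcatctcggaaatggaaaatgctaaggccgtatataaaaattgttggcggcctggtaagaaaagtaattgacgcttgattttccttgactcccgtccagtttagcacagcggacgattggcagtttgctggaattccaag
RPS16B: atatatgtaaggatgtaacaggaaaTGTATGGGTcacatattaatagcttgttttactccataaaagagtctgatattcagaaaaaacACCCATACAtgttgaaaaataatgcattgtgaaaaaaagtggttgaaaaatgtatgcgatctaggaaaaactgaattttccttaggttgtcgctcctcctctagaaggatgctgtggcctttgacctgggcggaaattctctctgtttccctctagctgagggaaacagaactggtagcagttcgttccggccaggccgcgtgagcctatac

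ATP changed no RPS transcript past the threshold in the NTT1 strain. The count was 0 of 56 at an adjusted p under 0.05 by edgeR's quasi-likelihood test with Benjamini-Hochberg adjustment over all genes, where 4.47% of all 6157 genes passed, a count of 275 that was 69 without untreated NTT1 replicate 2 and 1030 without untreated WT replicate 3. DESeq2's Wald test also called 0 RPS genes. The median log2 fold change of the RPS genes was 0.0028, with 29 positive and 27 negative values, against a median of -0.0029 over all genes. At an unadjusted p under 0.05 there was 1 RPS gene, RPS21B, against 21.7% of all genes. The 3 treated libraries lay above all 3 untreated ones for 1 RPS gene and below them for 0, where 18.5% of all genes were higher and 17.7% lower in this way. An exact test of 3 against 3 libraries cannot go below 0.1, so no gene was tested that way.

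The data also bound the size of any change. For 51 of the 56 genes the 95% interval of the log2 fold change in NTT1 lay within 0.5 on either side of 0, and for 56 within 1. Among the highest values was that of RPS27A (YKL156W), which had 299, 346 and 308 CPM in NTT1 with ATP and 314, 307 and 273 CPM in untreated NTT1. The groups overlapped, and the log2 fold change was 0.092 (-0.11 to 0.30, adjusted p 0.603).

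The lowest values in NTT1 came from a set of short genes, each with wide spread. RPS30B (YOR182C), a small basic protein of the body, had 188, 229 and 195 CPM in NTT1 with ATP, against 259.6, 328 and 218 CPM in untreated NTT1. The ranges overlapped, and the log2 fold change was -0.40 (-0.80 to 0.0047, adjusted p 0.234). RPS29A (YLR388W), a zinc-binding protein of the head, had 164, 211 and 172 CPM with ATP and 225, 293 and 192 CPM without. Its log2 fold change was -0.38 (-0.83 to 0.083, adjusted p 0.32). RPS27B (YHR021C) had 282, 373 and 313 CPM with ATP and 396, 516 and 340.25 CPM without, for -0.37 (-0.78 to 0.034, adjusted p 0.266). In all 3 genes untreated replicate 2 was the highest library of the strain. RPS21B, a protein at the back of the body, had 403, 519.65 and 456 CPM with ATP and 529, 700.4 and 506 CPM without, for -0.33 (-0.66 to -0.0021, adjusted p 0.227). Without untreated NTT1 replicate 2 the RPS30B, RPS29A and RPS27B values were -0.23, -0.19 and -0.19, and the number of positive RPS values was 42 in place of 29. Without NTT1 with ATP replicate 2 it was 7.

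In WT, ATP likewise moved 0 of 56 RPS genes past the threshold by edgeR, where 12.7% of all genes passed, and 0 by DESeq2. That share is 784 genes, which became 89 without untreated WT replicate 1 and 2086 without untreated WT replicate 3, with 0 RPS genes in each. None had an unadjusted p under 0.05, against 30% of all genes, and 0 had ranges that did not overlap, against 13.4% of all genes higher and 13.7% lower. The median log2 fold change was 0.057, with 51 of 56 values positive, against 0.0027 over all genes. That sign rested on untreated WT replicate 2. Without it the median was -0.050 and 51 of 56 values were negative, and without replicate 3 it was 0.13 with all 56 positive. Intervals lay within 0.5 of 0 for 53 genes and within 1 for all 56. Each interval rests on 1 spread per gene shared by the 4 groups. Untreated WT was the widest group for most RPS genes. RPS31 had a log2 SD of 0.30 there, against 0.16 pooled over the 4 groups. Intervals of comparisons that use untreated WT may thus be too narrow.

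The highest values in WT were those of RPS30B, RPS29A and RPS27B, the lowest 3 in NTT1. RPS30B had 296, 247 and 258 CPM in WT with ATP and 267, 167 and 259.65 CPM in untreated WT, for 0.21 (-0.20 to 0.61, adjusted p 0.494). RPS29A had 257, 210.4 and 222 CPM with ATP and 238, 138 and 235 CPM without, for 0.18 (-0.28 to 0.63, adjusted p 0.617). RPS27B had 456, 383 and 427 CPM with ATP and 429.5, 278 and 417 CPM without, for 0.17 (-0.24 to 0.58, adjusted p 0.581). Untreated replicate 2 was the lowest WT library of each, and without it the values were 0.021, -0.038 and -0.0024. The lowest values in WT were -0.072 for RPS14B, -0.061 for RPS28B and -0.024 for RPS9A, with intervals of -0.27 to 0.13, -0.27 to 0.15 and -0.20 to 0.15.

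Between the strains, 0 of 56 RPS genes differed with ATP and 0 without it by edgeR, and 0 by DESeq2. Of all genes 0.065% passed with ATP and 0.0487% without. Without ATP that is 3 genes, against 602 without untreated WT replicate 3, where 0 RPS genes were called too. With ATP, the median log2 fold change of NTT1 against WT was -0.070, with 51 of 56 values negative, against 0.0014 over all genes. The smallest adjusted p of an RPS gene was 0.999. Without adjustment, 0 RPS genes had p under 0.05, against 4.52% of all genes. The number of negative values was 39 without NTT1 replicate 1 and 55 without NTT1 replicate 2, with medians of -0.029 and -0.14. Ranges did not overlap for 7 genes lower in NTT1 (RPS25A, RPS27B, RPS28A, RPS28B, RPS29B, RPS30A and RPS30B) and for 1 higher (RPS9A), against 7.97 and 8.2% of all genes.

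RPS30B was the lowest of the 7 on the log2 scale. Its 188, 229 and 195 CPM in NTT1 with ATP lay below the 296, 247 and 258 CPM in WT with ATP, for a log2 fold change of -0.39 (-0.79 to 0.013, adjusted p 0.999). RPS27B had -0.39 (-0.79 to 0.018, adjusted p 0.999) and RPS29A, whose ranges overlapped narrowly, -0.33 (-0.79 to 0.12, adjusted p 0.999). RPS28A, near the mRNA exit on the head, had 468, 523 and 472 CPM in NTT1 and 621, 572 and 579 CPM in WT, for -0.28 (-0.58 to 0.031). RPS9A, the minor RPS9 gene, went the other way with 259, 278.5 and 269 CPM in NTT1 and 258, 226 and 258 CPM in WT, for 0.12 (-0.056 to 0.30, adjusted p 0.999). Next were RPS20 at 0.014 and RPS1B at 0.0057.

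Without ATP, the median of NTT1 against WT was -0.020, with 22 positive and 34 negative values, against 0.0011 over all genes. At an unadjusted p under 0.05 there was 1 RPS gene, RPS28B, against 9.7% of all genes. RPS28B (YLR264W) had 461, 386 and 398 CPM in untreated NTT1 and 495, 413 and 538 CPM in untreated WT, for -0.22 (-0.43 to -0.0011, adjusted p 0.514). Its paralog RPS28A went the other way, at 0.16 (-0.15 to 0.46, adjusted p 0.798), with 588, 662 and 514 CPM in NTT1 and 597, 401 and 586 CPM in WT. RPS29A at 0.22 (-0.24 to 0.68) and RPS30B at 0.21 (-0.19 to 0.62) were the highest values, and after RPS28B the lowest were RPS1A at -0.090 and RPS4B at -0.088. No RPS gene had ranges that did not overlap, against 4.27% of all genes higher and 5.13% lower. The balance of signs turned with single libraries, to 51 positive without untreated WT replicate 3 and to 4 positive without untreated WT replicate 2.

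The interaction, which is the fold change with ATP in NTT1 less the one in WT, was past the threshold for 0 of 56 RPS genes and for 0% of all genes by edgeR, and for 0 RPS genes by DESeq2. Without untreated WT replicate 3, 106 genes passed, 0 of them RPS genes. An unadjusted p under 0.05 was found for 1 RPS gene, RPS30B, and for 5.93% of all genes. RPS30B had an interaction of -0.61 (-1.18 to -0.034, adjusted p 0.829), RPS29A of -0.55 (-1.20 to 0.095) and RPS27B of -0.54 (-1.12 to 0.031). The highest were RPS28B at 0.13, RPS9A at 0.11 and RPS1B at 0.079. The median of -0.039 was 0.051 without untreated WT replicate 2. Here intervals were wider, within 0.5 of 0 for 45 genes and within 1 for 53, and reaching beyond 1 for the other 3. The 5 comparisons share libraries in pairs, so their values for 1 gene are not independent of one another.

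**Figure D3:**
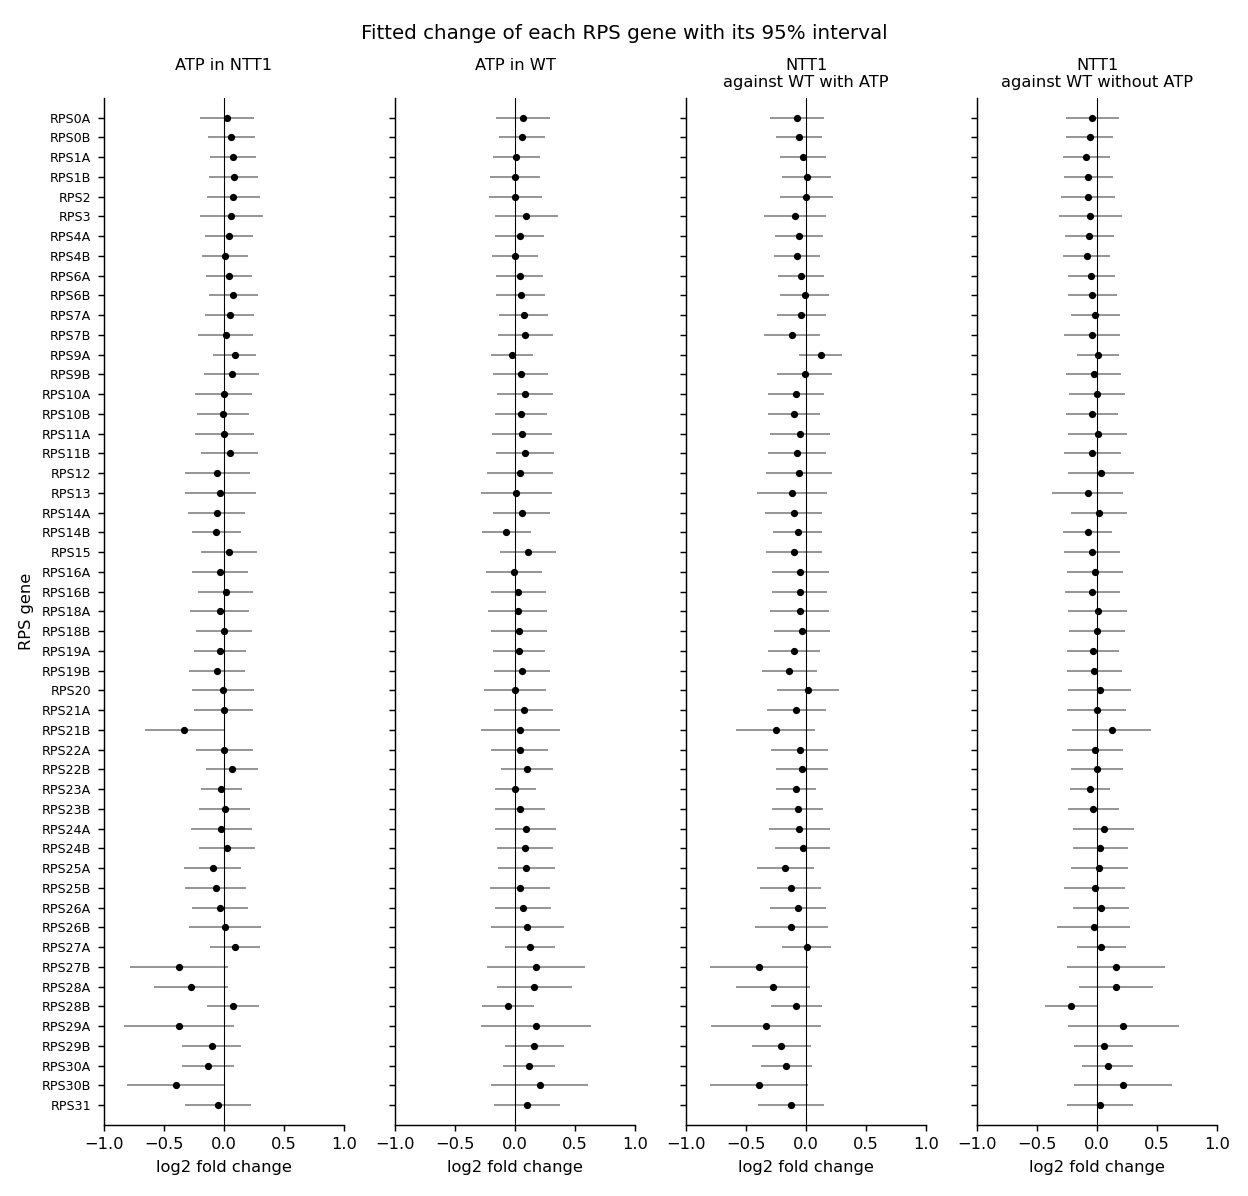
Fitted log2 fold change of 51 of the 56 RPS genes (points) with its 95% interval (lines) in 4 comparisons. Most points lie within 0.2 of 0, and RPS21B, RPS27B, RPS28A, RPS29A and RPS30B have the lowest values for ATP in NTT1 and for NTT1 against WT with ATP.

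With ATP in NTT1 the median log2 fold change was -0.036 over the 22 genes of the head, of which 6 were positive, and 0.018 over the 34 of the body and platform, of which 23 were positive. In WT the medians were 0.053, with 19 positive, and 0.059, with 32 positive. For NTT1 against WT with ATP they were -0.095, with 1 positive, and -0.059, with 4 positive, and without ATP -3.5e-05 and -0.028, with 11 positive in each. No difference between these sets was tested. Genes with an intron had a median of 0.00088 in NTT1 and 0.056 in WT, and genes without one had 0.0049 and 0.063. Single-copy genes had 0.018 and 0.042, and genes in pairs 0.0028 and 0.059.

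The medians lay further apart when the genes were split by length. The 10 RPS genes with a coding sequence under 300 bp, which are the pairs of RPS21, RPS27, RPS28, RPS29 and RPS30, had a median log2 fold change of -0.20 for ATP in NTT1, against 0.0078 over the 46 longer genes. For ATP in WT the medians were 0.14 and 0.050. For NTT1 against WT they were -0.23 and -0.059 with ATP, and 0.10 and -0.028 without. The short genes were not alike: for ATP in NTT1 the lowest values lay in 1 gene of each short pair. RPS21B, RPS27B, RPS28A, RPS29A and RPS30B ran from -0.40 to -0.27. Their paralogs, of the same coding length, ran from -0.13 for RPS30A to 0.092 for RPS27A. Over the 56 genes, Spearman's rho of the fold change with coding length was 0.64 for ATP in NTT1 and -0.45 for ATP in WT, and 0.55 with ATP and -0.68 without ATP for NTT1 against WT. These are correlations across genes that share the same libraries, and genes are not independent replicates. With coding GC content rho ran from -0.16 to 0.0078.

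Short genes outside the ribosome had medians of the same sign. Among 1674 genes other than ribosomal protein genes with at least 100 CPM on average, the 32 with a coding sequence under 300 bp had a median of -0.18 for ATP in NTT1, against 0.017 over the 1642 longer ones. In WT the medians were 0.13 and 0.019. For NTT1 against WT they were -0.12 and -0.011 with ATP, and 0.094 and -0.0064 without. Over the 1674 genes, rho of the fold change with coding length was weaker than over the RPS genes. It was 0.19 for ATP in NTT1 and -0.054 for ATP in WT. For NTT1 against WT it was 0.070 with ATP and -0.31 without. Whether transcript length has a part in the values of the short RPS genes was not tested.

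**Figure D4:**
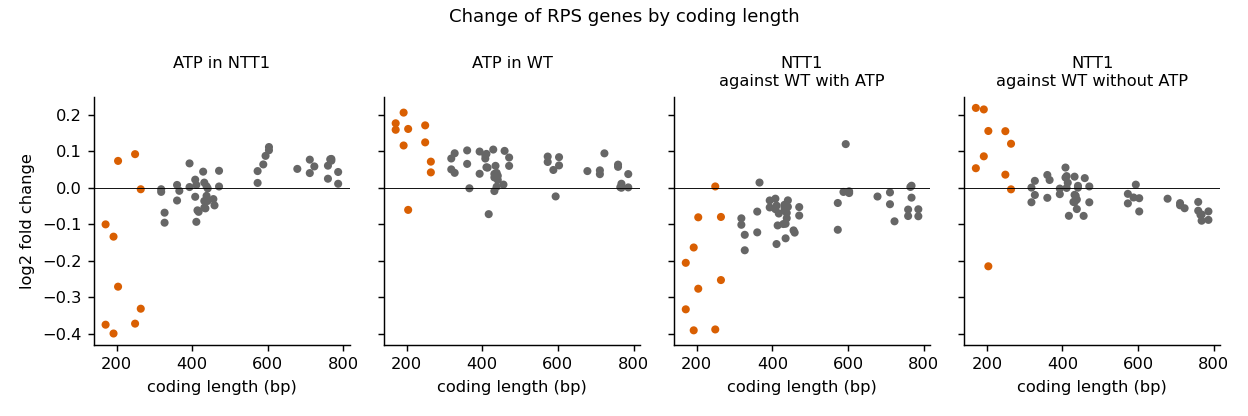
Log2 fold change of each RPS gene against its coding length in bp, in 4 comparisons, with genes under 300 bp in orange. Short genes reach from -0.40 for ATP in NTT1 to 0.22 for NTT1 against WT without ATP, and longer genes stay between -0.17 and 0.12.

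Single libraries stood out in the spread of the short genes. Chosen after their values were seen, RPS21B, RPS27B, RPS28A, RPS29A and RPS30B had the widest pooled SD within groups, with a median of 0.26 on the log2 scale against 0.13 over the other 51 RPS genes and 0.13 over all genes tested. RPS29A had the widest SD of any RPS gene within a group, 0.45 in untreated WT. Against each gene's mean of the 12 libraries, the median of these 5 genes stood at -0.35, -0.020 and -0.27 in NTT1 with ATP and at 0.11, 0.45 and -0.12 in untreated NTT1. In WT it stood at 0.27, 0.021 and 0.091 with ATP and at 0.18, -0.44 and 0.12 without. The other 51 genes had medians of -0.10, 0.11 and -0.060 in NTT1 with ATP and of -0.032, 0.090 and -0.10 in untreated NTT1, and of 0.080, 0.035 and 0.043 in WT with ATP and 0.068, -0.25 and 0.14 in untreated WT. The 5 genes stood furthest above the others in untreated NTT1 replicate 2. They stood furthest below them in NTT1 with ATP replicates 1 and 3 and in untreated WT replicate 2, and also below them in NTT1 with ATP replicate 2, untreated NTT1 replicate 3, WT with ATP replicate 2 and untreated WT replicate 3.

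**Figure D5:**
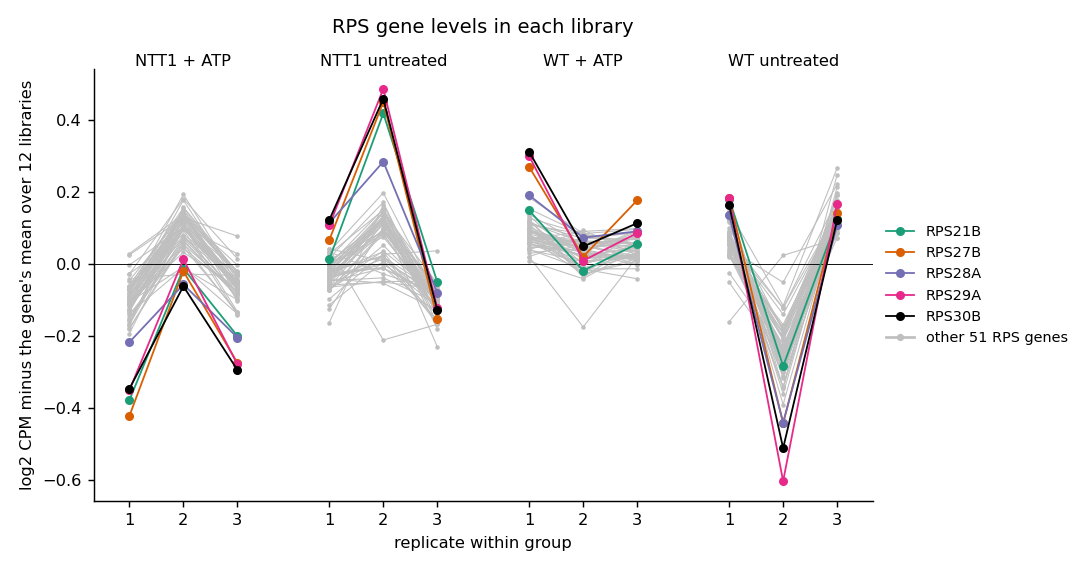
Log2 CPM of each RPS gene in each library minus the gene's mean over 12 libraries. Grey lines are 51 genes and coloured lines the 5 most variable ones, lines join values of the same gene only, and untreated WT replicate 2 is the lowest library for 51 of the 56 genes.

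Paralog ratios were tested as the log2 ratio of gene A to gene B by limma over the 60 A and B pairs of the genome with enough counts. All but COX5 and NHP6 are pairs of ribosomal protein genes, and 24 are the RPS pairs. The share of all 60 pairs is thus no background of unrelated genes, and counts of the 36 other pairs are given too. For ATP in NTT1, 0 of 24 RPS pairs and 0% of all 60 pairs passed the adjusted threshold. At an unadjusted p under 0.05 there were 7 of the 24 RPS pairs and 5 of the 36 others, 20% of all pairs. The ranges of the 3 treated and the 3 untreated libraries did not overlap in 9 RPS pairs and 6 others, 25% of all 60 pairs. The median absolute change of the RPS pairs was only 0.035, and 19 of 24 stayed under 0.1 on the log2 scale.

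The largest changes with ATP in NTT1 were in the pairs RPS27, RPS28 and RPS21, all of short genes. RPS27A held 51.5, 48.1 and 49.6% of the pair's counts in NTT1 with ATP and 44.2, 37.3 and 44.5% in untreated NTT1. The groups did not overlap, and the log2 ratio changed by 0.45 (95% interval 0.17 to 0.74, adjusted p 0.102). RPS27A itself overlapped between these groups, as given above. RPS28A held 51.8, 54.4 and 51.9% with ATP and 56.1, 63.1 and 56.4% without, for a change of -0.34 (-0.58 to -0.11, adjusted p 0.111). RPS21A held 65.2, 62.7 and 63.3% with ATP and 60.6, 55.2 and 59.5% without, for 0.32 (0.14 to 0.50, adjusted p 0.0976). Untreated replicate 2 was the extreme library in all 3 pairs. Without it the changes were 0.31, -0.20 and 0.22.

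The coding sequences of RPS27 and RPS28 show how far the paralogs can be told apart by reads. They are spliced coding sequences on the strand of the gene, from the RefSeq genome of build R64, with the bases that differ between paralogs in capitals. RPS27A lies at chrXI:158613-159212 on the plus strand and RPS27B at chrVIII:147871-148669 on the minus strand, each with 1 intron. They differ at 39 of 249 bases (84.3% identity), and the longest identical run is 23 bases. RPS28A at chrXV:648804-649007 on the minus strand and RPS28B at chrXII:673131-673334 on the plus strand have no intron and differ at 24 of 204 bases (88.2% identity), with a longest identical run of 35 bases.
RPS27A: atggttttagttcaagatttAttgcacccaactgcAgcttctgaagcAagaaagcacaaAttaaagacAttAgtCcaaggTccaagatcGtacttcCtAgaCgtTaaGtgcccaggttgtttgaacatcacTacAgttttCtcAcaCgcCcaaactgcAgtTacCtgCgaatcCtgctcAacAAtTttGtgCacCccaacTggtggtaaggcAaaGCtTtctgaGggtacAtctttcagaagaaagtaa
RPS27B: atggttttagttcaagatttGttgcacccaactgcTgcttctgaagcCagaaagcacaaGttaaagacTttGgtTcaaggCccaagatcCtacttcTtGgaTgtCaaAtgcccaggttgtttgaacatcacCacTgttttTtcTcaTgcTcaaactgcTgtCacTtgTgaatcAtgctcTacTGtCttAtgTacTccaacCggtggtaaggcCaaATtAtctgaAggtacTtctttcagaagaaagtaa
RPS28A: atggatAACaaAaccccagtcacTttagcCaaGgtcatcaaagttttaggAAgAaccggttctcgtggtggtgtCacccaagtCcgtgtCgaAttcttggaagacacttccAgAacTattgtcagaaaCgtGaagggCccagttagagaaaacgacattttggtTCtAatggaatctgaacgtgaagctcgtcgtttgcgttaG
RPS28B: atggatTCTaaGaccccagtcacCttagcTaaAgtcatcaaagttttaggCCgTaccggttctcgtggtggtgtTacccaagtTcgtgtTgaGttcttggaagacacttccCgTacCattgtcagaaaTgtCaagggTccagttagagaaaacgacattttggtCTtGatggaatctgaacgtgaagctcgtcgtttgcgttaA

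In WT, ATP moved 0 of 24 RPS pairs past the adjusted threshold, as it did 0% of all 60. The largest changes were 0.24 for RPS28 (-0.0010 to 0.47, adjusted p 0.339), 0.13 for RPS14 (0.0042 to 0.26, adjusted p 0.339) and -0.11 for RPS30 (-0.34 to 0.12, adjusted p 0.721). At an unadjusted p under 0.05 there were 1 RPS pair, RPS14, and 7 of the 36 others, 13.3% of all pairs. Ranges did not overlap in 3 RPS pairs and 8 others, 18.3% of all pairs. RPS28A held 56.1, 56.3 and 55.9% of the pair in WT with ATP and 54.7, 49.3 and 52.1% in untreated WT. RPS27A held 41.3, 45.3 and 42.2% with ATP and 40.7, 47.7 and 43.7% without, so that its ranges overlapped widely.

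Between the strains, 0 of 24 RPS pairs passed with ATP and 0 without it, and 0% of all pairs did in either. With ATP the largest change was in RPS27, at 0.40 (0.11 to 0.68, adjusted p 0.225), where the lowest NTT1 library, at 48.1% of counts in RPS27A, lay above the highest WT library, at 45.3%. RPS30 followed at 0.23 (-0.0029 to 0.46, adjusted p 0.3) and RPS28 at -0.20 (-0.44 to 0.040, adjusted p 0.377). Without adjustment, 2 RPS pairs, RPS27 among them, and 6 of the 36 others had p under 0.05, 13.3% of all pairs. Ranges did not overlap in 7 RPS pairs and 9 others, 26.7% of all pairs. In a fit of the 6 treated libraries alone RPS27 passed, with an adjusted p of 0.0228. Without ATP the largest was RPS28, at 0.38 (0.14 to 0.62, adjusted p 0.272), with 56.1, 63.1 and 56.4% in RPS28A in untreated NTT1 and 54.7, 49.3 and 52.1% in untreated WT. RPS29 followed at 0.18 and RPS30 at -0.14. At an unadjusted p under 0.05 there were 1 RPS pair, RPS28, and 3 of the 36 others, 6.67% of all pairs. Ranges did not overlap in 2 RPS pairs and 4 others, 10% of all pairs.

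For the interaction of the pair ratios, limma called 0 of 24 RPS pairs and 0% of all pairs. Without adjustment, 5 RPS pairs and 3 of the 36 others had p under 0.05, 13.3% of all pairs. The largest was RPS28, at -0.58 (-0.92 to -0.24, adjusted p 0.172), with a change of -0.34 in NTT1 and 0.24 in WT. RPS27 had 0.52 (0.11 to 0.92, adjusted p 0.237) and RPS30 0.36 (0.038 to 0.69, adjusted p 0.237).

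The other lists of the pathway are read against all genes, of which 4.47% were called with ATP in NTT1 and 12.7% in WT. Of the 81 large-subunit genes, 79 were tested. With ATP in NTT1 0 were called, with a median log2 fold change of 0.0064. In WT the median was 0.063 and 2 of 79 rose, a lower share than the 12.7% of all genes. They were RPL28 and RPL22A, at only 21.9 and 3.33 CPM on average. Whether such low counts capture these transcripts in full was not tested. RPL28 was called in 5 of 6 fits that left out 1 WT library, all but that without untreated replicate 1, and RPL22A in 3. Of 18 factors that assemble the 40S subunit or guard single 40S proteins, all 18 had positive values with ATP in both strains, with medians of 0.21 in NTT1 and 0.18 in WT, and called were 0 in NTT1 and 1 in WT, both shares below those of all genes. Of all 6157 genes 3031 were positive in NTT1 and 3119 in WT. With ATP, ranges did not overlap for 9 of the 18 factors higher in NTT1 and for 2 higher in WT, and for 0 lower in either. Of all genes, 18.5% were higher in this way in NTT1 and 13.4% in WT. No test was run over the list. The call in WT was EMG1, a methyltransferase of 18S rRNA, at 0.49 (adjusted p 0.0351). It held in 1 of 6 fits that left out 1 WT library, that without untreated replicate 3. In NTT1, EMG1 had 0.32 (adjusted p 0.176).

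Of 15 partners of the 40S subunit in initiation, 1 rose with ATP in NTT1 and 2 in WT, shares close to the 4.47 and 12.7% of all genes. HCR1, the loosely bound j subunit of factor eIF3, which touches the 40S subunit directly, had 287 ± 14.0 CPM in NTT1 with ATP and 210.0 ± 7.75 CPM in untreated NTT1 (SD, n = 3 each). The fitted change was 0.45 on the log2 scale (SE 0.058, adjusted p 0.00285), and it was called in all 6 fits that left out 1 library of the comparison. In WT it had 263 ± 3.55 CPM with ATP and 227 ± 7.10 CPM without (SD, n = 3 each), for 0.21 (SE 0.058, adjusted p 0.0401). NIP1, the c subunit of eIF3, had 0.45 in WT (adjusted p 0.0487). Both WT calls held only in the fit without untreated replicate 3 among the 6.

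Of 20 genes listed as regulators of ribosomal protein or ribosome assembly genes, 2 rose and 2 fell with ATP in NTT1. In WT, 2 rose and 4 fell. Of all genes, 4.47 and 12.7% were called in either direction. YAK1, a kinase that acts against growth, fell in both strains. It changed by -1.001 in NTT1 (adjusted p 0.019) and by -0.84 in WT (adjusted p 0.0267). Others were KOG1 of TORC1, at 0.37, and the repressor DOT6, at 0.89, in NTT1, and RRP7 at 0.40, IFH1 at 0.69, TPK2 at -0.63 and TOR1 at -0.27 in WT. Few of these calls held when 1 library of the comparison was left out. YAK1 was called in 2 of 6 such fits in NTT1 and 1 of 6 in WT, DOT6 in 0, and KOG1, RRP7, IFH1, TPK2 and TOR1 in 1 each, which in WT was the fit without untreated replicate 3. Between the strains 0 genes of these 4 lists were called, with or without ATP.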

How the data were processed

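RNA sequencing counts per gene were deposited by the authors as whole numbers for 12 libraries, not normalized. Per the submitters' processing notes, HISAT2 2.0.5, featureCounts 1.5.0 and DESeq2 1.20.0 were used with genome build R64; the strand setting and the treatment of reads that match several places are not given in the sources used here. Totals were 14845855 to 20714804 counts per library, and no library was identical to another.

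Genes were filtered by edgeR's filterByExpr, which left 6157 of 7127, scaled by TMM and tested with edgeR 4.0.16 (R 4.3.3, quasi-likelihood, 1 mean per group, all 12 libraries) with Benjamini-Hochberg adjustment over all tested genes and a threshold of 0.05. Log2 CPM used a prior count of 2. Paralog ratios were log2 of counts of A over B, each plus 0.5, in 60 pairs, tested with limma 3.58.1. Intervals are 95%. The tests were checked on simulated data with planted changes larger than those of the RPS genes and equal spread in all groups. That check does not bear on small changes or unequal spread. Alternatives were DESeq2 1.42.0, other scaling and filters, fits of the compared groups alone, a replicate block and leaving out each library; leaving out libraries outside the comparison was added after seeing the data. Replicates are independent biological ones per the series' design text.

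The members and lists were chosen with earlier results of these data known. Genes named are, per comparison, the 3 highest and 3 lowest RPS fold changes and the 3 pairs with the largest change, the 4 highest and 4 lowest levels, the 4 most and 4 least even pairs, the gene of widest spread and the 2 smallest p of each other list; the other genes named were chosen after their values were seen. Names came from the RefSeq annotation, which matched 6023 features. A few genes that this rule names are not reported here by name; they remain in the counts, medians and tests.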

Additional observations from a re-analysis of the deposited data

How the results depend on the processing

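Calls of RPS genes stayed at 0 in all 5 comparisons under every alternative run. For paralog pairs, the count of 0 became 1 in 3 fits: RPS27 between the strains with ATP in the 6 treated libraries alone (0.40, adjusted p 0.0228), RPS21 for ATP in NTT1 without untreated NTT1 replicate 1 (0.38, adjusted p 0.0409), and 1 pair for ATP in NTT1 without untreated NTT1 replicate 3, so that leaving out 1 library gave 0 to 1. Signs of some small values turned when 1 library was left out. For ATP in WT the ranges were -0.038 to 0.30 for RPS29A, -0.0024 to 0.28 for RPS27B, -0.13 to 0.0067 for RPS14B, -0.16 to 0.026 for RPS28B, -0.090 to 0.038 for RPS9A and -0.18 to 0.00074 for the RPS30 pair; RPS9A was 0.023 without untreated WT replicate 3. Between the strains with ATP they were -0.022 to 0.038 for RPS20 and -0.059 to 0.047 for RPS1B. Of the other values of single genes or pairs under the alternatives, 818 kept their direction and side of the threshold and 2, those of the RPS21 and RPS27 pairs above, passed it. The cause of these changes was not tested.

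Counts of all genes called depended far more on single libraries. With any 1 of the 12 left out they ran from 69 (untreated NTT1 replicate 2) to 1030 for ATP in NTT1, against 275, and from 89 (untreated WT replicate 1) to 2086 for ATP in WT, against 784. For NTT1 against WT they ran from 2 to 602 without ATP, against 3, and from 1 to 6 with ATP, against 4, and for the interaction from 0 to 106, against 0. The highest count of each was that without untreated WT replicate 3. The compared groups alone gave 950, 19, 0 and 3 genes for the 4 comparisons in this order, and DESeq2 gave 591, 1120, 41 and 12, and 6 for the interaction. Correlations of same-numbered deviations ran from -0.44 to 0.31. No pairing by replicate number was seen, though 3 libraries a group are too few for this check to exclude it. With the numbers as a replicate block, 250 and 671 genes were called for ATP in NTT1 and in WT with 0 RPS genes in either.

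With 3 libraries a group, the 95% intervals of 51 to 53 of the 56 RPS genes lay within 0.5 of 0 in comparisons of 2 groups, so smaller changes are not excluded, and no absolute scale per cell was available.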
